A study of Mus musculus with 9 samples.

Results

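The collagen chains were taken as every gene whose name on the array is Col, a type number, the letter a and a chain number. This gave 43 genes with 68 probes, out of 34733 genes and 55666 probes kept on the arrays. A set of 25 chains had 1 probe each and 18 had several. The series profiled mouse gliomas of the MADM model (Mosaic Analysis with Double Markers, in which rare cells of a mouse become mutant and carry a colour label) beside normal brain cells, on 9 single-colour arrays of total RNA. The tumour tissue group held 3 arrays of brain tumour labelled EZH2-KO-MADM glioma tissue, with EZH2 knocked-out and MADM as the strain background. The glioma cell group held 2 arrays of MADM glioma cells from brain tumour, for which the labels give no genotype. The normal samples, labelled wild type C57BL/6J brain, were neural stem cells (2 arrays) and astrocytes (2 arrays). Nothing in the labels gives the alleles that drive the MADM tumours, the promoter of any Cre, the age of the mice, or whether arrays with 1 label come from separate animals or cultures, so p-values measure the spread between these arrays, which may be technical.

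Collagens are secreted proteins in which 3 chains wind into a triple helix, in which a glycine follows after every 2 other residues. Fibrillar chains such as those of types I, III and V build the tensile fibres of connective tissue. Network chains of type IV form the sheet of the basement membrane, and those of type VIII form a lattice in subendothelial and corneal matrix. Fibril-associated chains decorate fibres, and type VI makes beaded filaments. In the brain, fibrillar collagen lies mainly in the meninges and around vessels, while the parenchyma holds little of it. The repeat can be read directly in a 60-base probe of Col25a1, a transmembrane collagen of neurons, which is printed because it lies wholly in helical coding sequence. It is given 5′ to 3′ on the plus strand of mm9, and the capitals mark the 6 glycine codons.
Col25a1 probe, chr3:130270497-130270556: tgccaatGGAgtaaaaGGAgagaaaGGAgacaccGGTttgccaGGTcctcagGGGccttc

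Ezh2, the histone methyltransferase named in the tissue labels, was measured on every array. Levels are log2 processed signal minus the 75th percentile of that array, so 0 is a bright probe and the dimmest signals lie near -7. Ezh2 read 1.91, 1.62 and 1.48 in EZH2-KO tissue, 3.03 and 3.24 in glioma cells, 0.19 and -0.58 in astrocytes, and 2.14 and 3.38 in neural stem cells. Tissue arrays were all below both glioma cell arrays, by 1.46 on the log2 scale (SE 0.42, adjusted p = 0.0503), and all above both astrocyte arrays. Tissue holds cells other than tumour cells, and where the probe lies relative to the deleted part was not checked, so this is a limited check of the labels. Between 60.1% and 65.7% of non-control spots were well above background per array. The 3 tissue arrays shared 1 slide and the 6 cell arrays another, so slide and tissue cannot be told apart. Strain background likewise cannot be told apart from tumour against normal.

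The labelled cell types were set against marker genes. The 10 astrocyte markers had means of 4.20 and 3.14 in astrocytes and of -0.38 and -0.72 in glioma cells. In tissue these markers averaged 2.29 to 3.45, and in neural stem cells 2.90 and 0.23, so astrocyte array 2 was not above all tissue arrays. Neural stem cell markers averaged 3.50 and 3.88 in neural stem cells and 2.48 and 1.30 in astrocytes. They averaged 0.89 and 3.08 in glioma cells and 2.53 to 2.87 in tissue. Microglia and macrophage markers averaged 2.70 and 3.19 in astrocytes and 2.77 to 3.81 in tissue, with all 10 well above background on each of these arrays, against -3.74 and -3.51 in glioma cells. Markers of oligodendrocyte precursors averaged 4.56 to 5.26 in glioma cells and tissue, 4.29 and 3.05 in neural stem cells, and -0.38 and -1.22 in astrocytes. The tissue arrays also carried endothelial markers, all 12 well above background on each, and pericyte and smooth muscle markers. The endothelial list averaged -0.13 to 0.64 in tissue, -3.55 and -1.99 in astrocytes, -3.11 and -3.65 in glioma cells, and -4.32 and -3.55 in neural stem cells. Cldn5, a tight junction gene of brain endothelium, and Rgs5, a pericyte gene, were each well above background on 3 of 9 arrays, which were the tissue arrays. Other endothelial genes were not so restricted. Cdh5 was highest on astrocyte array 2 (2.73, against -2.02 to -1.05 in tissue) and Vwf on glioma cell array 1 (2.65). Pecam1 and Kdr were well above background on all 9 arrays. Other genes of the pericyte and smooth muscle list were highest in astrocytes, among them Acta2 (3.94 and 7.23, against -0.18 to 2.03 in tissue), Tagln and Cnn1. That list averaged -1.84 to -1.34 in tissue, -1.84 and -0.73 in astrocytes, -5.21 and -4.86 in glioma cells and -3.32 and -3.69 in neural stem cells. In bulk samples, fewer cells of a type and less RNA per cell cannot be told apart.

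Members of a pair of arrays with the same label differed widely in collagen. The root mean square difference between the 2 arrays of a group over the 35 chains tested was 2.64 in astrocytes, 3.06 in glioma cells and 1.67 in neural stem cells, where all genes tested gave 0.991, 1.03 and 1.01. Tissue pairs gave 1.32 to 1.91 for the chains and 0.832 to 0.918 for all genes. Astrocyte array 2 held Col1a2 at 6.94, Col3a1 at 5.44 and Col6a3 at -0.52, where astrocyte array 1 had -0.78, -1.16 and -7.65. The fibroblast and meningeal marker genes moved with these chains, with a mean of 0.64 on astrocyte array 2 (13 of 14 well above background) and -1.86 on array 1 (10 of 14). Decorin (Dcn) and lumican (Lum), small proteoglycans that bind collagen fibres, read 6.71 and 3.83 on array 2 and -0.79 and -3.87 on array 1. The part of fibroblast-like cells in these levels was not tested.

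The glioma cell pair differed in another set of chains. Glioma cell array 1 was higher by over 4-fold for 12 of the 35 chains and lower for 2, when 2.54% of all genes were that much higher and 3.35% that much lower. Those chains included Col2a1 (3.41 and -1.95 on arrays 1 and 2), the main fibrillar collagen of cartilage, and Col27a1 (1.87 and -4.19), a minor one. Aggrecan (Acan), the large proteoglycan of cartilage and perineuronal nets, read 4.72 and -2.11, and Sox2, a neural stem cell factor, read -7.55 and 2.28. A list of 12 cartilage genes chosen after values were seen had 7 that were over 4-fold higher on glioma cell array 1. Among them were Matn1 (1.05 and -6.29), Snorc (1.99 and -5.18) and Ucma (1.13 and -7.26), while Sox9, the master factor of cartilage, was 0.36 and 1.44. These 2 arrays thus carried the same label and lay far apart in cartilage-type matrix genes, and results that rest on array 1 are given with and without it.

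**Figure D1:**
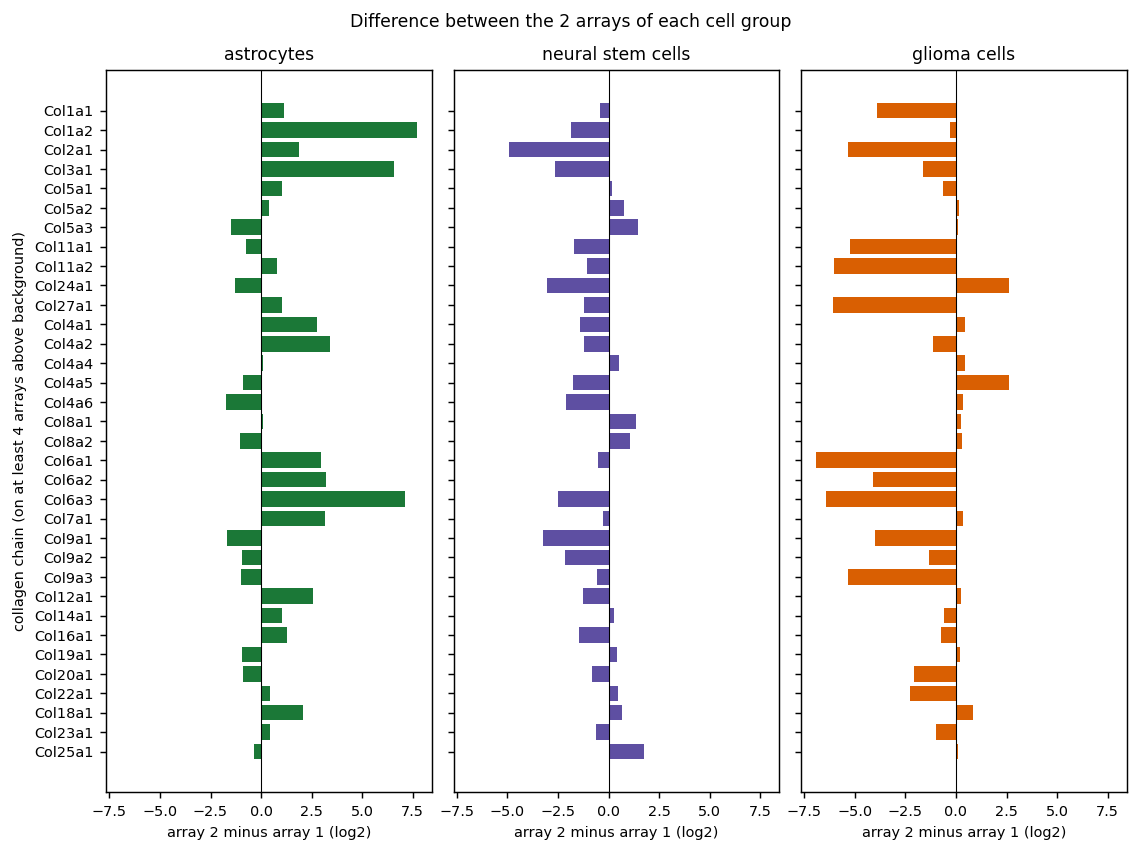
Difference between array 2 and array 1 (log2) in astrocytes, neural stem cells and glioma cells, 1 bar per collagen chain, for the 34 chains well above background on at least 4 arrays. Astrocyte bars reach furthest to the right for Col1a2, Col6a3 and Col3a1, and glioma cell bars furthest to the left for Col6a1, Col6a3, Col27a1 and Col11a2.

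**Figure D2:**
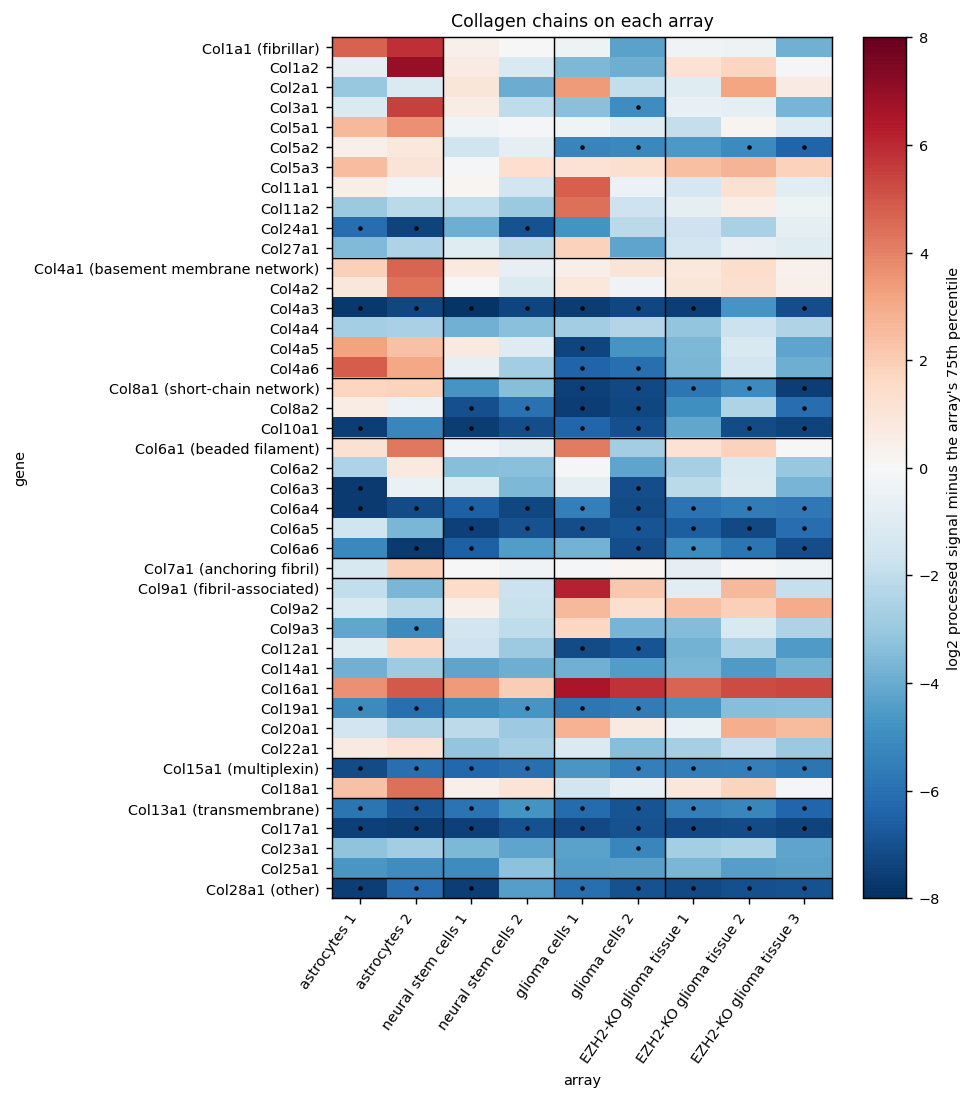
Level of each of the 43 collagen chains (rows, grouped by role) on each of the 9 arrays (columns), as log2 processed signal minus the 75th percentile of the array. Black dots mark values not well above background. Col1a1, Col4a5, Col4a6, Col8a1 and Col8a2 are red or pale on both astrocyte arrays and bluer on both glioma cell arrays.

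Of the 43 chains, 22 were well above background on all 9 arrays by the probe that stands for them. Col4a6 and Col23a1 were so by another probe only. Tests covered 34 chains in the fit of the 6 cell arrays and 35 in the fit of all 9, because testing a gene took a probe that cleared background throughout 1 or more of the groups fitted. Since this filter lets a dim gene in through the group where it is high, counts over the tested chains describe them and support nothing further. The 8 chains that passed in neither fit were Col4a3, Col6a4, Col6a6, Col10a1, Col13a1, Col15a1, Col17a1 and Col28a1. Col6a4, Col13a1 and Col17a1 had no probe well above background on any array. Col15a1, a basement membrane zone collagen, was so on glioma cell array 1 alone, and Col10a1, a growth plate collagen, on tissue array 1 and astrocyte array 2. Col4a3, of the kidney and lung basement membrane, was above background on tissue array 2 only, Col28a1 on neural stem cell array 2 only, and Col6a6 on 3 arrays of 3 cell groups.

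Between glioma cells and astrocytes, 11 of the 34 chains tested fell, 3 rose and 20 were not called, at an adjusted p under 0.05 and at least 2-fold, the rule for every call here. Over all 24868 genes, 18.8% were called, 9.0% higher and 9.84% lower. The median chain differed by -1.52 on the log2 scale, against 0.149 for all genes. EZH2-KO tissue compared with astrocytes gave 11 lower and 5 higher of 35, where 23.0% of 25398 genes were called, 10.6% higher and 12.4% lower, with medians of -0.686 for the chains and -0.0557 for all genes. The 11 lower chains were the same in both comparisons, which share the astrocyte arrays. They were Col1a1, Col5a1 and Col5a2 (fibrillar), Col4a5 and Col4a6 (basement membrane), Col8a1 and Col8a2 (short-chain), Col6a5 (beaded filament), Col12a1 and Col22a1 (fibril-associated) and Col18a1 (multiplexin).

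Neural stem cells also had less of several chains than astrocytes, with 7 of 34 lower and 0 higher by limma (14 chains had an unadjusted p under 0.05), where 14.6% of all genes were called, 6.74% higher and 7.85% lower. The 7 were Col4a6, Col5a1, Col5a2, Col6a5, Col8a1, Col8a2 and Col22a1. Between glioma cells and neural stem cells 1 chain of 34 was called, Col5a2, lower in glioma cells, and 0.977% of all genes were called, 0.659% higher and 0.318% lower. Here 10 chains had an unadjusted p under 0.05. Tissue against glioma cells gave 2 higher chains of 35 and 0 lower by limma (10 had an unadjusted p under 0.05), where 16.9% of all genes were called, 7.82% higher and 9.11% lower, and tissue against neural stem cells gave 3 higher and 1 lower, where 18.0% were called, 8.08% higher and 9.89% lower. In these last comparisons 5.71% and 11.4% of the chains tested were called, below the share over all genes in each. The share of all genes at an unadjusted p under 0.05 was not taken. The counts of chains at that threshold therefore have no background beside them and show nothing about collagen.

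The scaling matters for the balance of calls over all genes. With the deposited log2 values left unscaled, the median of all genes moved from -0.16 to 0.38 in tissue against glioma cells, from -0.22 to 0.29 in tissue against neural stem cells, from 0.15 to -0.29 in glioma cells against astrocytes and from 0.21 to -0.19 in neural stem cells against astrocytes. The share of calls that were higher then went from 46.20% to 79.64%, from 44.95% to 77.67%, from 47.77% to 30.04% and from 46.17% to 24.13%, in that order. No called chain reversed direction with quantile scaling, normexp correction or the unscaled table, although the 3 higher calls in glioma cells against astrocytes were lost in the unscaled table.

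**Figure D3:**
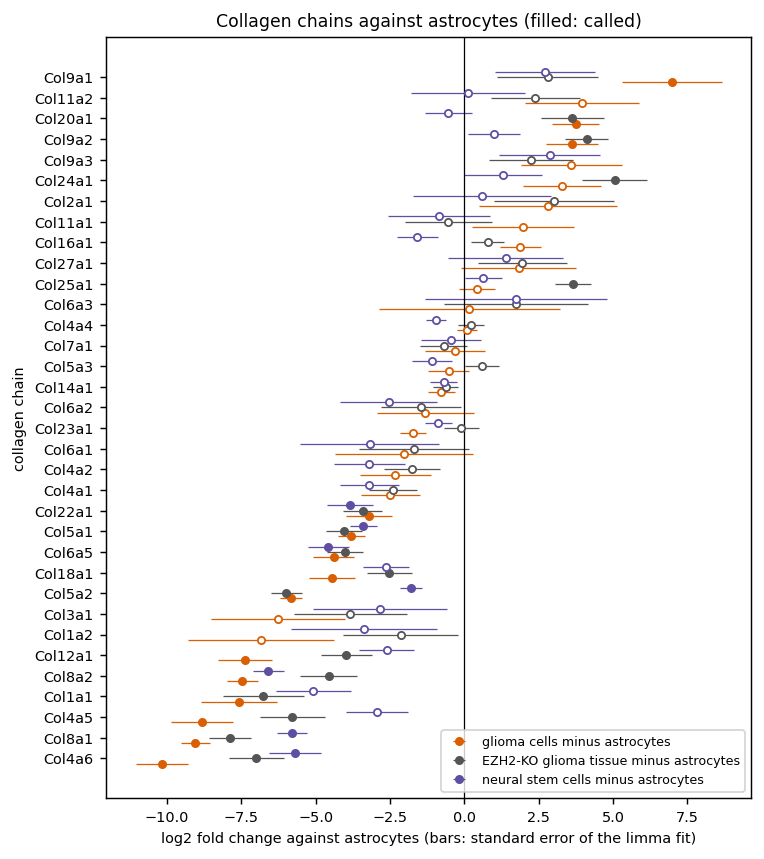
Log2 fold change against astrocytes (points) with the standard error of the limma fit (bars) for the 34 chains tested in both fits, in glioma cells, EZH2-KO glioma tissue and neural stem cells. Filled points were called. All 3 groups share the 2 astrocyte arrays, and the chains at the foot of the plot, from Col4a6 to Col8a2, lie left of 0 in each group.

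The basement membrane network chains split into the widely made pair Col4a1 and Col4a2 and the tissue-restricted pair Col4a5 and Col4a6, which carry the defects of Alport syndrome and of diffuse leiomyomatosis in people. Both pairs lie head to head in the genome. In RefSeq (GRCm38.p6) the starts of Col4a1 and Col4a2 are 21 bases apart on chromosome 8, and those of Col4a6 and Col4a5 are 1343 bases apart on chromosome X. The 250 bases before the start of Col4a5 and Col4a6 follow, since these neighbours were lower together. Capitals mark a CCAAT box (CCAAT) or a GC box (GGGCGG), on either strand.
Col4a5, chrX:141475169-141475418, plus strand: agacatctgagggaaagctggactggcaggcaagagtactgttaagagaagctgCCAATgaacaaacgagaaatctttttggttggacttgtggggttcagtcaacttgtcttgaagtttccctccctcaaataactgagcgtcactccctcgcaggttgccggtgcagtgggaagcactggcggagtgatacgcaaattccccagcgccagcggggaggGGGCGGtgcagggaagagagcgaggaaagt
Col4a6, chrX:141474077-141474326, minus strand: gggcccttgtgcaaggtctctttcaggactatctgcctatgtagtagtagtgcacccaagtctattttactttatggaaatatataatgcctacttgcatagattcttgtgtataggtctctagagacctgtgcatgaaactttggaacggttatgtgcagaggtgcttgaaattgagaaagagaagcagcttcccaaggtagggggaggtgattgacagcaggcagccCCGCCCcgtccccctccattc

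Col4a6 read 4.84 and 3.11 in astrocytes, -0.66 and -2.78 in neural stem cells, -6.38 and -6.03 in glioma cells, and -3.65, -1.51 and -3.91 in tissue. Both astrocyte arrays were above all others, and neither glioma cell array was well above background. For a group in which no array measured a probe well above background, only a bound can be given: the mean of the brighter group against the dimmest signal that was well above background on each array of the other. By it Col4a6 was at least 548-fold lower in glioma cells than in astrocytes, with a measured difference of -10.18 (SE 0.88, adjusted p = 0.0038). It was 128-fold lower in tissue (adjusted p = 0.0027) and fell by 5.69 on the log2 scale in neural stem cells (SE 0.88, adjusted p = 0.0184). A second Col4a6 probe, well above background on all 9 arrays, disagreed: it differed by -0.91 between glioma cells and astrocytes and by -1.68 between tissue and astrocytes. The probes had near-equal means, so that leaving out either astrocyte array made the second probe the brighter one and ended the calls in glioma cells and neural stem cells, with differences as small as -0.52 and -0.98. The neural stem cell call was also lost without neural stem cell array 2, and the tissue call without astrocyte array 1 (adjusted p = 0.0593).

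Col4a5 moved in the same way with a single probe. It read 3.23 and 2.35 in astrocytes, 0.74 and -1.04 in neural stem cells, -7.35 and -4.74 in glioma cells (well above background on array 2 only), and -3.58, -1.20 and -4.21 in tissue. The groups of astrocytes and of glioma cells did not overlap, and the mean difference was -8.84 (SE 1.04, adjusted p = 0.0076). Relative to astrocytes, tissue fell by 5.79 on the log2 scale (SE 1.09, adjusted p = 0.0099), a call lost without astrocyte array 1 (adjusted p = 0.0601). The difference of -5.90 between glioma cells and neural stem cells did not pass the test.

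Col4a1 and Col4a2, the chains of nearly every basement membrane, behaved differently. Col4a1 read 1.88 and 4.65 in astrocytes, 0.76 and -0.64 in neural stem cells, 0.55 and 1.00 in glioma cells, and 0.83, 1.42 and 0.36 in tissue. Col4a2 read 0.93 and 4.35, 0.05 and -1.17, 0.87 and -0.26, and 0.97, 1.25 and 0.40 in the same order. On both genes astrocyte array 2 stood apart and the other groups lay close together. Col4a1 differed by -2.49 (SE 0.99, adjusted p = 0.135) between glioma cells and astrocytes and by -2.39 (SE 0.81, adjusted p = 0.0679) between tissue and astrocytes. Without astrocyte array 1, Col4a1 and Col4a2 were called lower in tissue and in neural stem cells. Col4a4, a partner of Col4a3 in the kidney, lay between -3.86 and -1.73 on all arrays and passed no test.

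Type VIII chains were higher on both astrocyte arrays than on any other. They form short helices that assemble into hexagonal lattices, known from the corneal endothelium and from vessel walls. The windows of 250 bases before each start, with GC boxes in capitals, are shown because these 2 chains of 1 collagen were lower together although they lie on different chromosomes. Both hold 4 GC boxes, overlapping ones counted separately.
Col8a1, chr16:57754738-57754987, minus strand: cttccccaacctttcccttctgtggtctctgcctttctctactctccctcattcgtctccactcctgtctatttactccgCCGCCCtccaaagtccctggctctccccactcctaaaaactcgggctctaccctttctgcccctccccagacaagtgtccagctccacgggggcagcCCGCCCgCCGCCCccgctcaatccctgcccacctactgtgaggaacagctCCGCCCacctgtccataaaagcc
Col8a2, chr4:126286544-126286793, plus strand: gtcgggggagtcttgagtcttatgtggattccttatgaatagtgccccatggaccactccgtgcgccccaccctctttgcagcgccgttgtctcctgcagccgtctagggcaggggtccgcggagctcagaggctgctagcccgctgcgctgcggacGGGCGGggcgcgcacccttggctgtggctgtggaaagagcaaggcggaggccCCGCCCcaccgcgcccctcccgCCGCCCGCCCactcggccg

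Col8a1 read 1.69 and 1.78 in astrocytes, -4.75 and -3.38 in neural stem cells, -7.44 and -7.19 in glioma cells, and -5.78, -5.11 and -7.55 in tissue. The astrocyte arrays agreed within 0.1, and no glioma cell or tissue array was well above background. Col8a1 was at least 116-fold lower in glioma cells (measured difference -9.05, SE 0.50, adjusted p = 0.0024) and at least 148-fold lower in tissue (-7.89, SE 0.71, adjusted p = 0.0008). In neural stem cells, where both arrays measured it, it fell by 5.81 on the log2 scale (SE 0.50, adjusted p = 0.0057). These 3 calls were kept when each array was left out in turn, with a highest adjusted p of 0.0324.

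Col8a2 read 0.59 and -0.44 in astrocytes, -7.06 and -6.00 in neural stem cells, -7.55 and -7.27 in glioma cells, and -4.89, -2.50 and -6.09 in tissue. The astrocyte arrays differed by about as much as those of the neural stem cells. It was at least 36.8-fold lower in glioma cells (adjusted p = 0.0028), at least 41.9-fold lower in neural stem cells (adjusted p = 0.0052), and fell by 4.57 on the log2 scale in tissue (SE 0.95, adjusted p = 0.0142). The tissue call was lost without astrocyte array 1 (adjusted p = 0.0835). Its other probe, not well above background on either glioma cell array, differed by -0.41 between tissue and astrocytes.

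Across the 35 chains with a RefSeq promoter entry, a GC box within 250 bases before a start was found for 21, where 32.7% of all 32851 promoter windows hold one. A CCAAT box was found for 13 (33.8% of all windows), a TATA box (TATAAA) for 5 (12.4%), a SOX core (ACAAAG) for 4 (16.5%) and an AP-1 site (TGANTCA) for 1 (6.75%), each on either strand. A chain was counted if any of its RefSeq windows held the motif, while the percentages are of single windows. The counts and percentages are therefore not like for like. These are matches of letters, and the data hold no readout of binding at them.

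**Figure D4:**
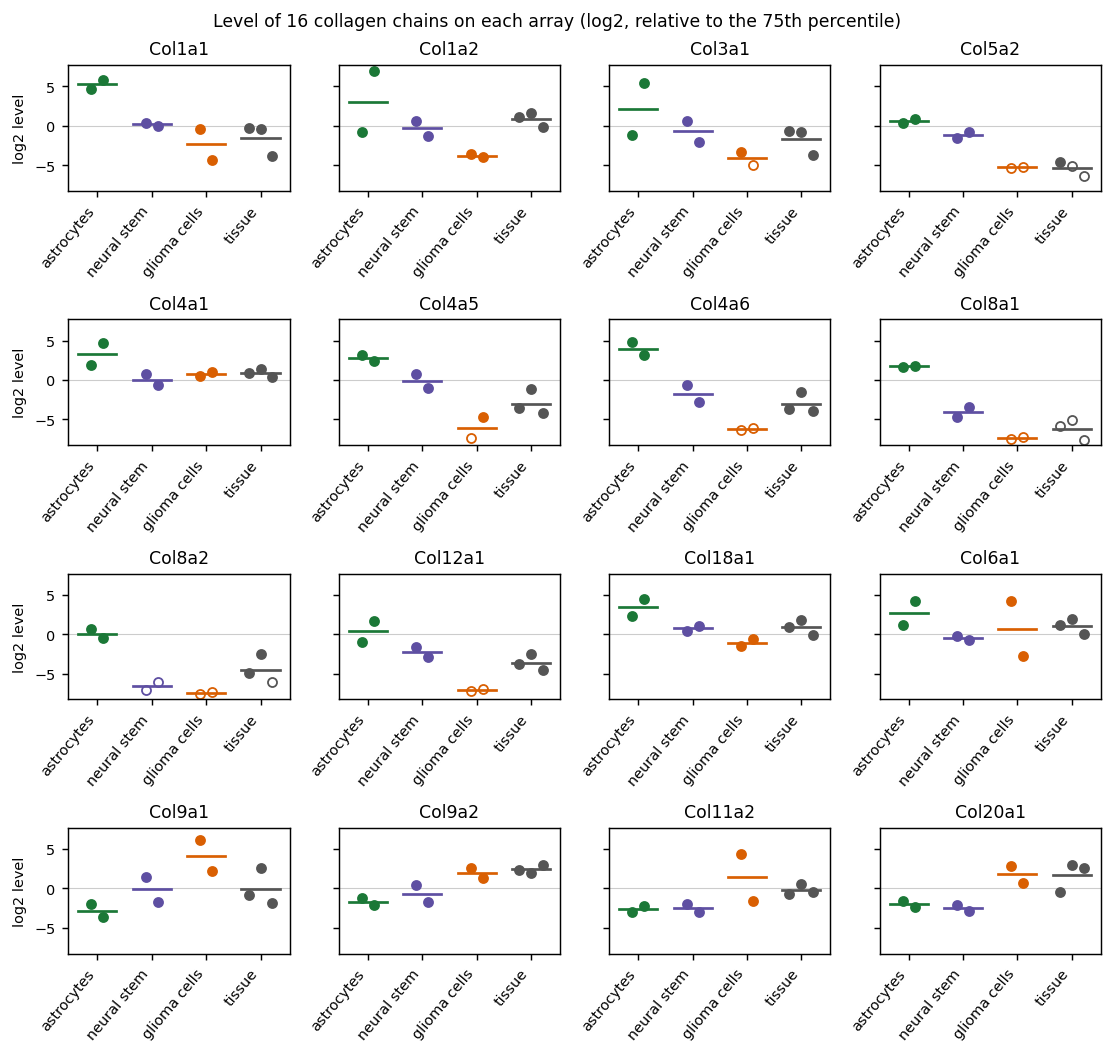
Level of 16 collagen chains on each array, as log2 processed signal relative to the 75th percentile of the array. Points are arrays, bars are group means, and open points were not well above background. Col8a1 and Col8a2 are higher on both astrocyte arrays than on any other, Col1a2 and Col3a1 are highest on astrocyte array 2, and Col9a1 and Col11a2 are highest on glioma cell array 1.

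Among fibrillar chains, 3 of 11 were lower in glioma cells than in astrocytes and 0 higher, where 9.84% of all genes were lower and 9.0% higher. Col1a1, the major chain of type I collagen of skin, bone and scar, read 4.69 and 5.82 in astrocytes, 0.39 and -0.04 in neural stem cells, -0.38 and -4.27 in glioma cells, and -0.29, -0.43 and -3.82 in tissue. Both astrocyte arrays stood far above all others. It fell by 7.58 on the log2 scale in glioma cells (SE 1.27, adjusted p = 0.0183) and fell by 6.77 in tissue (SE 1.36, adjusted p = 0.0123). Without either astrocyte array the first call was lost (adjusted p up to 0.0845), and without astrocyte array 2 the second was (adjusted p = 0.0711). Neural stem cells differed from astrocytes by -5.08, a difference that was not called in the fit of the 6 cell arrays.

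Col1a2, which pairs with Col1a1 in the type I helix, did not follow it between the astrocyte arrays. It read -0.78 and 6.94 in astrocytes, 0.64 and -1.23 in neural stem cells, -3.62 and -3.93 in glioma cells, and 1.18, 1.69 and -0.09 in tissue. Col3a1, the fibril partner of type I in soft tissue, read -1.16 and 5.44, 0.61 and -2.02, -3.33 and -4.94, and -0.60, -0.80 and -3.69 in the same order. Glioma cells had the lowest mean for both chains, and astrocyte arrays spanned most of the range. For Col3a1, tissue array 3 (-3.69) lay below glioma cell array 1 (-3.33). The differences of -6.85 (SE 2.45, adjusted p = 0.107) and -6.27 (SE 2.25, adjusted p = 0.108) between glioma cells and astrocytes were not called. With astrocyte array 1 left out both were called, and with array 2 left out the differences were -2.99 and -2.97. All 3 tissue arrays were above both glioma cell arrays for Col1a2, by 4.70 on average (SE 1.93, adjusted p = 0.129).

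Type V chains nucleate type I fibrils and set their width. Col5a2 read 0.42 and 0.82 in astrocytes, -1.57 and -0.80 in neural stem cells, -5.29 and -5.15 in glioma cells, and -4.62, -5.12 and -6.38 in tissue, where array 1 alone was well above background. Its pairs of arrays agreed closely, and the groups formed 3 levels with tumour at the bottom. Col5a2 was the 1 chain called between glioma cells and neural stem cells, at least 15.3-fold lower (measured difference -4.03, SE 0.37, adjusted p = 0.0252). That call was lost without each of the 6 cell arrays in turn (adjusted p up to 0.102), and with normexp correction, while the log2 difference stayed between -4.42 and -3.65 with 1 array left out. Glioma cells were at least 53.6-fold below astrocytes (adjusted p = 0.0026) and tissue differed by -4.19 from neural stem cells (SE 0.52, adjusted p = 0.0027) and by -5.99 from astrocytes (SE 0.52, adjusted p = 0.0008), and these 3 calls were kept whichever array was left out. Neural stem cells differed by -1.81 from astrocytes (SE 0.37, adjusted p = 0.0348), a call lost without any 1 of the 6 cell arrays.

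Col5a1 had group means of 3.15 in astrocytes, -0.25 in neural stem cells, -0.65 in glioma cells and -0.90 in tissue. The log2 difference from astrocytes was -3.80 in glioma cells (SE 0.45, adjusted p = 0.0078), -4.05 in tissue (SE 0.62, adjusted p = 0.0046) and -3.40 in neural stem cells (SE 0.45, adjusted p = 0.0129). The last of these calls was lost when a neural stem cell array was left out, with adjusted p-values up to 0.0662, and the others were kept whichever array was left out. The third type V chain, Col5a3, did not share this pattern, with levels from 1.87 to 2.74 in tissue and no call in any comparison. Col24a1, a minor fibrillar chain known from bone, read -1.64, -2.60 and -0.79 in tissue, -4.77 and -2.16 in glioma cells, -3.92 and -6.94 in neural stem cells, and -6.08 and -7.39 in astrocytes, where neither array was well above background. Tissue was at least 14.6-fold above astrocytes (adjusted p = 0.0162), a call lost without astrocyte array 2 or tissue array 3 (adjusted p up to 0.0922).

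The cartilage-type fibrillar chains followed glioma cell array 1. Col11a1, which seeds cartilage fibrils, read 4.75 on glioma cell array 1 and -0.47 on array 2, 0.55 and -0.19 in astrocytes, 0.17 and -1.52 in neural stem cells, and -1.37, 1.22 and -0.93 in tissue. Array 2 of the glioma cells lay within the range of the other groups. Col11a2, its partner chain, differed by 3.96 between glioma cells and astrocytes (SE 1.91, adjusted p = 0.194). That difference was 6.99 without glioma cell array 2, and called, and 0.94 without array 1. Col2a1 (2.81, SE 2.32) and Col27a1 (1.82, SE 1.94) had standard errors near the size of the difference in the same comparison. Without glioma cell array 1 the differences from astrocytes were 0.13 for Col2a1, -1.20 for Col27a1 and -0.65 for Col11a1.

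Type VI chains make beaded filaments around cells and in the brain's vascular matrix, and 3 of them (Col6a1, Col6a2, Col6a3) build the classical heterotrimer. Col6a1 read 1.22 and 4.20 in astrocytes, -0.23 and -0.73 in neural stem cells, 4.14 and -2.78 in glioma cells, and 1.18, 1.86 and -0.01 in tissue. Col6a2 read -2.46 and 0.77, -3.43 and -3.35, -0.09 and -4.21, and -2.67, -1.19 and -3.05 in the same order. Col6a3 read -7.65 and -0.52, -1.09 and -3.60, -0.70 and -7.12, and -2.13, -1.18 and -3.73, with astrocyte array 1 and glioma cell array 2 not above background. For all 3 chains, astrocyte array 2 was above astrocyte array 1 and glioma cell array 1 above glioma cell array 2. None was called in any comparison, and the standard errors, 1.33 to 3.05 on the log2 scale, were as large as most differences. Between glioma cells and astrocytes the sign of each turned with the array left out, from -5.49 to 1.43 for Col6a1, from -3.36 to 0.75 for Col6a2 and from -3.39 to 3.74 for Col6a3.

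Col6a5, a later-found relative of Col6a3, was unlike them. It read -1.62 and -3.63 in astrocytes and was not well above background on any of the other 7 arrays, where it lay between -7.48 and -6.08. It was at least 5.65-fold lower in glioma cells (adjusted p = 0.0154), 7.18-fold in tissue (adjusted p = 0.0043) and 6.44-fold in neural stem cells (adjusted p = 0.0171). Leaving out a glioma cell array ended the first call (adjusted p up to 0.0575), and leaving out a neural stem cell array ended the third (0.0767 at most). Both were also lost with normexp correction. Its other probe was above background on no array.

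Fibril-associated chains held all 3 chains that were higher in glioma cells than in astrocytes, and 2 that were lower, of 8 tested. Over all genes 9.0% were higher and 9.84% lower. Col9a1 and Col9a2 encode chains of type IX, which coats cartilage fibrils and is also made in the eye. The sequences before their starts are given because both were higher in glioma cells, and capitals mark a GC box on either strand. Col9a1 has a second RefSeq start further downstream, and the upstream one is shown.
Col9a1, chr1:24177360-24177609, plus strand: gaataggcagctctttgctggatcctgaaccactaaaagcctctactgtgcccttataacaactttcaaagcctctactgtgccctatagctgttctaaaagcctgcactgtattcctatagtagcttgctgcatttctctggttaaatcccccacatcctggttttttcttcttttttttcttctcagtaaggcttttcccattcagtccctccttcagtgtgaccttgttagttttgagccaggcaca
Col9a2, chr4:121039316-121039565, plus strand: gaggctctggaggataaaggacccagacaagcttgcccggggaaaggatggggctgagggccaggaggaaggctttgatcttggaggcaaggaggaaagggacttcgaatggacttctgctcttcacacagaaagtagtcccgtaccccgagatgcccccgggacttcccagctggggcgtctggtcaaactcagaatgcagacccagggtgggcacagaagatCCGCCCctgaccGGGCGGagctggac
The Col9a1 window shown held none of the 5 motifs searched, and that of Col9a2 held 2 GC boxes. The window of the downstream Col9a1 start, not shown, held a CCAAT box 18 bases before that start.

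Col9a1 read 6.15 and 2.14 in glioma cells, -1.98 and -3.68 in astrocytes, 1.49 and -1.73 in neural stem cells, and -0.84, 2.58 and -1.83 in tissue. Both glioma cell arrays were above both astrocyte arrays, and array 1 was above every other. The mean difference from astrocytes was 6.98 (SE 1.68, adjusted p = 0.0455), and 4.97 without glioma cell array 1, a call then lost. The call was lost, too, when any astrocyte or neural stem cell array was left out, with an adjusted p of at most 0.164, and with the mean of its probes. A second probe gave 2.68. Col9a3, the third type IX chain, read 1.63 and -3.71 in glioma cells, -4.13 and -5.12 in astrocytes, -1.48 and -2.04 in neural stem cells, and -3.46, -1.25 and -2.45 in tissue. It differed by 3.59 from astrocytes in glioma cells (SE 1.70, adjusted p = 0.187), and by 0.92 without array 1.

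Col9a2 was steadier. It read 2.58 and 1.25 in glioma cells, 2.36, 1.93 and 2.95 in tissue, 0.38 and -1.79 in neural stem cells, and -1.22 and -2.17 in astrocytes. All 5 tumour arrays were above all 4 normal arrays. Glioma cells were higher than astrocytes by 3.61 (SE 0.87, adjusted p = 0.0454), a call lost without any 1 of these 4 arrays (adjusted p up to 0.164). Tissue was higher than astrocytes by 4.11 (SE 0.71, adjusted p = 0.0073), a call kept whichever array was left out, and than neural stem cells by 3.12 (SE 0.71, adjusted p = 0.0238), a call lost without neural stem cell array 2 or tissue arrays 1 or 3. Of 10 markers of oligodendrocyte precursors, 6 were called higher in glioma cells than in astrocytes and 7 in neural stem cells than in astrocytes. Over all genes 9.0% and 6.74% were called higher in these comparisons. The part of these markers in the result was not tested.

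Col20a1, another chain of this class, gave 2.79 and 0.71 in glioma cells, -0.52, 2.91 and 2.52 in tissue, -1.55 and -2.42 in astrocytes, and -2.12 and -2.93 in neural stem cells. All tumour arrays were above all normal arrays, with tissue array 1 the lowest of them. The difference from astrocytes was 3.74 in glioma cells (SE 0.78, adjusted p = 0.0317) and 3.63 in tissue (SE 1.07, adjusted p = 0.0447), and tissue was above neural stem cells by 4.17 (SE 1.07, adjusted p = 0.034). Between glioma cells and neural stem cells the difference of 4.28 was not called. Its 2 probes agreed, with 3.59 and 3.77 from the other probe for glioma cells and tissue against astrocytes. The calls were fragile: that in glioma cells was lost in 5 of 6 fits that left out an array, that of tissue against astrocytes in 6 of 9, and that of tissue against neural stem cells in 5 of 9, with the log2 differences staying between 2.69 and 5.25.

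Col16a1, found near many fibrils and basement membranes, was bright throughout, with 6.55 and 5.80 in glioma cells, 4.67, 5.23 and 5.32 in tissue, 3.66 and 4.93 in astrocytes, and 3.43 and 1.99 in neural stem cells. Tumour arrays lay above neural stem cell arrays without overlap. Tissue was above neural stem cells by 2.36 (SE 0.55, adjusted p = 0.0253), a call lost without neural stem cell array 2 or tissue arrays 2 or 3 (adjusted p up to 0.157). Glioma cells differed by 3.46 (SE 0.68, adjusted p = 0.108) from neural stem cells, which was not called.

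Col12a1, a large chain that links fibrils in tendon and scar, read -0.95 and 1.63 in astrocytes, -1.65 and -2.91 in neural stem cells, -7.17 and -6.90 in glioma cells, and -3.81, -2.53 and -4.53 in tissue. Neither glioma cell array was well above background, while all other arrays were. It was at least 44.2-fold lower in glioma cells than in astrocytes (measured difference -7.38, SE 0.92, adjusted p = 0.0087) and differed by -3.97 between tissue and astrocytes (SE 0.86, adjusted p = 0.0159). The first call was kept whichever array was left out, and the second was lost without astrocyte array 2 (adjusted p = 0.0802). Tissue was at least 2.82-fold above glioma cells (measured difference 3.41, SE 0.86, adjusted p = 0.0335). This last call did not survive leaving out glioma cell arrays 1 or 2 or tissue arrays 1 or 2 (adjusted p up to 0.142), or normexp correction. Of 9 pericyte and smooth muscle markers tested, 6 were higher in tissue than in glioma cells, and of 12 endothelial markers 6 were. Over all genes 7.82% were higher. The part of these markers in the Col12a1 difference was not tested.

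Col19a1, a rare chain known from interneurons and smooth muscle, read -4.70, -3.38 and -3.32 in tissue, -5.81 and -5.62 in glioma cells, -5.10 and -6.05 in astrocytes, and -5.15 and -4.74 in neural stem cells. It was well above background on all 3 tissue arrays and on 1 other. Tissue was at least 2.51-fold above glioma cells (adjusted p = 0.0356) and at least 2.94-fold above astrocytes (adjusted p = 0.0357). Neuron markers averaged 2.21 to 3.66 in tissue and -1.36 to 0.91 on the cell arrays, and their part was not tested. The first call was lost without glioma cell arrays 1 or 2 or tissue arrays 2 or 3 (adjusted p up to 0.155), the second without these or either astrocyte array (adjusted p up to 0.194), and both with quantile scaling or normexp correction.

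Col22a1, a chain of tissue junctions, had group means of 0.95 in astrocytes, -2.26 in glioma cells, -2.47 in tissue and -2.89 in neural stem cells. The log2 difference from astrocytes was -3.21 in glioma cells (SE 0.77, adjusted p = 0.0441), -3.42 in tissue (SE 0.65, adjusted p = 0.0102) and -3.84 in neural stem cells (SE 0.77, adjusted p = 0.0333). Leaving out 1 array ended the call in 5 of 6, 1 of 9 and 4 of 6 fits. Col14a1, another fibril-associated chain, stayed between -4.52 and -2.84 on all arrays and was not called, while its second probe read -1.64 and -1.36 in astrocytes and was not well above background on glioma cell array 2 or in tissue.

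Of the remaining chains, Col18a1 is the precursor of endostatin and part of basement membranes. It read 2.33 and 4.43 in astrocytes, 0.40 and 1.06 in neural stem cells, -1.50 and -0.65 in glioma cells, and 0.90, 1.79 and -0.14 in tissue. Astrocytes were highest and glioma cells lowest, without overlap between them. It fell by 4.46 in glioma cells (SE 0.77, adjusted p = 0.0197), lost without either glioma cell array (adjusted p up to 0.073), and fell by 2.53 in tissue (SE 0.75, adjusted p = 0.045), lost in 7 of 9 fits that left out an array and with quantile scaling. The second probe gave -4.92 and -3.63. Col7a1, of the anchoring fibrils of skin, lay between -1.26 and 1.89 and was not called in any comparison, and the transmembrane chain Col23a1 differed by -1.73 between glioma cells and astrocytes (SE 0.45, adjusted p = 0.0551), not called.

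Col25a1 showed how much a value can rest on the probe. The helical probe printed above, well above background on all 9 arrays, read -3.67, -4.42 and -4.30 in tissue, -4.42 and -4.34 in glioma cells, -4.63 and -4.98 in astrocytes, and -5.05 and -3.28 in neural stem cells. By that probe no group stood apart. In the fit of all 9 arrays another probe was brighter, which lies elsewhere in the gene (chr3:129885684-129885743 in mm9) and read -1.40, -2.86 and -2.96 in tissue, -5.11 and -3.57 in glioma cells, -5.77 and -6.36 in astrocytes, and -3.74 and -3.47 in neural stem cells. By this probe tissue was above all other arrays and at least 8.85-fold above astrocytes (measured difference 3.66, SE 0.61, adjusted p = 0.0062). The call was kept whichever array was left out, while the helical probe differed by 0.67 in the same comparison.

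Collagen needs a dedicated set of enzymes and chaperones: prolyl and lysyl hydroxylases, the chaperone Serpinh1 (HSP47), propeptide proteinases and the lysyl oxidases that cross-link fibres. Of 32 such genes tested, 9 were lower and 1 higher in glioma cells than in astrocytes, with a median of -0.93 against 0.15 for all genes, of which 9.84% were called lower and 9.0% higher. Serpinh1 read 4.83 and 5.18 in astrocytes, 3.61 and 3.96 in neural stem cells, -1.20 and -4.85 in glioma cells, and 0.12, 0.32 and -1.01 in tissue. Both tumour groups lay below both normal groups. It fell by 8.03 on the log2 scale in glioma cells (SE 1.16, adjusted p = 0.0124) and fell by 5.20 in tissue (SE 0.95, adjusted p = 0.0089) against astrocytes, and fell by 3.98 in tissue against neural stem cells (SE 0.95, adjusted p = 0.0274). Leaving out 1 array ended these calls in 2 of 6 fits (either astrocyte array), 1 of 9 (astrocyte array 2) and 5 of 9 (any neural stem cell or tissue array).

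Loxl1, a lysyl oxidase of elastic fibres, was at least 93.8-fold lower in glioma cells than in astrocytes (adjusted p = 0.0248), and Fkbp10, a prolyl isomerase of the endoplasmic reticulum, fell by 6.26 on the log2 scale (SE 0.46, adjusted p = 0.0030). The 1 higher gene was Pcolce2, a helper of procollagen C-proteinase, by 3.34 (SE 0.83, adjusted p = 0.0487). Its paralog Pcolce fell by 5.38 (SE 1.09, adjusted p = 0.0299). In tissue against astrocytes 9 genes were lower and 1 higher (12.4% and 10.6% of all genes), and of the called genes Loxl2 had the largest difference (-5.65, SE 0.52, adjusted p = 0.0009). In neural stem cells against astrocytes 8 were lower and 0 higher (7.85% and 6.74% of all genes), among them Lox, at least 38.6-fold (adjusted p = 0.0457), Pcolce (-5.71, SE 1.09, adjusted p = 0.0307) and Loxl2 (-4.87, SE 0.55, adjusted p = 0.0090). In tissue against glioma cells, where 7.82% of all genes were higher and 9.11% lower, 2 were higher, Loxl1 (at least 14.4-fold, adjusted p = 0.0245) and Fkbp10 (3.47, SE 0.69, adjusted p = 0.0155), and Plod2, a lysyl hydroxylase, was lower (-1.87, SE 0.42, adjusted p = 0.0231). Between glioma cells and neural stem cells limma called none of the 32. Of the calls named in this paragraph, those of Fkbp10 in glioma cells and of Loxl2 were kept whichever array was left out. The others were each lost without 2 to 4 of the arrays, and those of Loxl1 and Lox also with normexp correction, where the tissue difference of Loxl1 was 1.83. That of Pcolce2 was lost with quantile scaling.

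**Figure D5:**
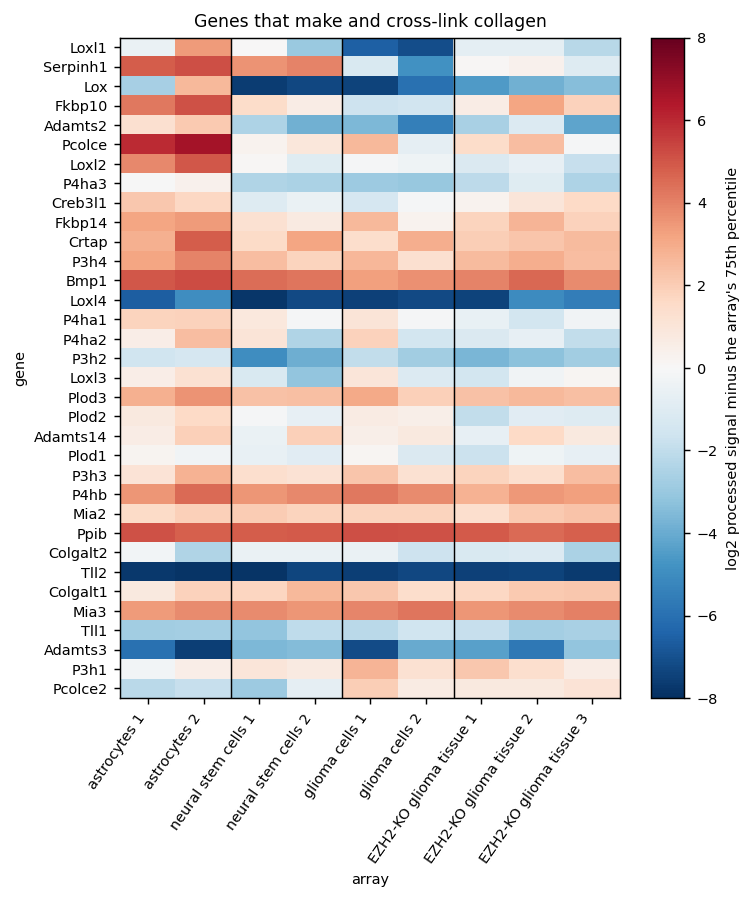
Level of 34 genes that modify, secrete, process or cross-link collagen (rows, ordered by the difference between astrocytes and glioma cells) on each of the 9 arrays, as log2 processed signal minus the 75th percentile of the array. Loxl1, at the top, is reddest on astrocyte array 2, Serpinh1 and Fkbp10 are redder on both astrocyte arrays than on any other, and P4hb, Ppib and Mia3 are of like colour on all arrays.

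Of 11 collagen receptors tested, 4 were lower in glioma cells than in astrocytes and 0 higher, against 9.84% and 9.0% of all genes. They were the receptor kinase Ddr1 (-2.41, SE 0.49, adjusted p = 0.0300), the integrin chains Itga1 (-3.41, SE 0.75, adjusted p = 0.0362) and Itga2 (adjusted p = 0.0344, well above background on 1 of 4 arrays compared, and turning to 0.25 with normexp correction), and the inhibitory leukocyte receptor Lair1 (-1.41, SE 0.35, adjusted p = 0.0476). Lair1 was higher in tissue than in glioma cells by 2.67 (SE 0.43, adjusted p = 0.0069). In the same comparison 8 of 10 microglia and macrophage markers were higher, as were 7.82% of all genes. Adgrg1 (GPR56), an adhesion receptor that binds type III collagen in the developing brain, was higher in neural stem cells than in astrocytes by 3.42 (SE 0.71, adjusted p = 0.0362) and higher in tissue by 1.94 (SE 0.55, adjusted p = 0.0398). The Lair1 call in tissue was kept whichever array was left out, and the other receptor calls given here (Ddr1, Itga1, Itga2, Lair1 in glioma cells and Adgrg1) were each lost without at least 4 of the arrays, and that of Lair1 in glioma cells also with normexp correction (-0.96).

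Matrix proteins that bind collagen gave 7 of 23 lower and 0 higher in glioma cells than in astrocytes, with a median of -2.77, where all genes had a median of 0.15 and 9.84% lower and 9.0% higher calls. Thbs1, a thrombospondin, was among the 7. Thbs1 read 4.36 and 4.26 in astrocytes, -3.64 and -2.49 in neural stem cells, -2.22 and -5.49 in glioma cells, and -1.96, -1.94 and -2.84 in tissue. The 2 astrocyte arrays agreed and stood above all others. The log2 difference from astrocytes was -8.17 in glioma cells (SE 1.09, adjusted p = 0.0101), -6.56 in tissue (SE 0.88, adjusted p = 0.0029) and -7.37 in neural stem cells (SE 1.09, adjusted p = 0.0165). The linkers of laminin to type IV collagen, Nid1 and Nid2, differed by -4.64 (SE 1.06, adjusted p = 0.0395) and -3.75 (SE 0.49, adjusted p = 0.0099) in glioma cells. In tissue against neural stem cells 3 were higher and 0 lower (8.08% and 9.89% of all genes): Comp (at least 5.84-fold, adjusted p = 0.0077, with neither neural stem cell array well above background), periostin Postn (3.26, SE 0.91, adjusted p = 0.0442) and Tgfbi (2.77, SE 0.75, adjusted p = 0.0406). Calls of Thbs1 and Comp in tissue were kept whichever array was left out, but Comp differed by 0.77 and was not called with normexp correction. The other calls whose values are given here (Thbs1 in glioma cells and neural stem cells, Nid1, Nid2, Postn and Tgfbi) were each lost without at least 2 of the arrays, that of Postn also with quantile scaling and that of Tgfbi with normexp correction.

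Markers of other cell types differed between the same groups. In glioma cells against astrocytes, 5 of 11 fibroblast and meningeal markers, all 5 tested pericyte and smooth muscle markers and 9 of 10 microglia and macrophage markers were lower. None of these lists had a higher call, and over all genes 9.84% were lower and 9.0% higher. The pericyte and smooth muscle list has 10 genes, of which Rgs5, Kcnj8, Abcc9, Myh11 and Des did not pass the filter. The 5 tested were well above background on both astrocyte arrays. The filter thus favoured lower calls, and this count describes the tested genes alone. Per array, the fibroblast and meningeal mean was -1.86 and 0.64 in astrocytes, -2.98 and -4.04 in glioma cells, -4.14 and -4.41 in neural stem cells, and -3.65 to -1.85 in tissue. The dermatopontin gene Dpt, a fibroblast marker, was well above background on no array, while Ogn read 2.75 and 4.35 in astrocytes and was below -3 on the other 7. Aldh1a2 (2.42 and 2.42), Foxc1 (1.42 and 3.59), Twist1 and Clec3b were also higher on both astrocyte arrays than on the other 7. Mfap5, Pi16, Tbx18, Slc6a13, Slc22a6, Igf2, Foxc2 and Thy1 were not. Slc6a13, for example, read -6.03 and -2.45 in astrocytes and -0.81 on tissue array 1. What such cells add to the astrocyte levels was not tested.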

How the data were processed

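Each of the 9 arrays was a SurePrint G3 Mouse GE 8 x 60K slide position labelled with Cy3 from 200 ng RNA, per the labels' protocols. Scanner files were written with Agilent Feature Extraction 10.7.3.1 (tissue) and 10.7.1.1 (cells), per the file headers, which name mm9 for probe positions. The deposited intensity used was the processed signal, already background-subtracted by the authors' software. The deposited table of log2 values lay within 0.01 of log2 of that signal for 99.01% to 99.81% of probes per array, so the authors had not scaled it between arrays.

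Control spots and outlier-marked spots were left out and spots of a probe averaged. The log2 signal, less its 75th percentile on that array (414.7 to 897.2 intensity units), was fitted with limma 3.58.1 (R 4.3.3). Comparisons between cells used the 6 cell arrays (3 residual degrees of freedom) and those with tissue all 9 (5). A gene's brightest tested probe stands for it, and p-values were adjusted over all genes tested by the Benjamini-Hochberg method. In data simulated for glioma cells against astrocytes over 24868 genes, 52% of genes changed by 4 on the log2 scale and 1% of those changed by 2 were called. The simulation changed far fewer genes than were called in the data, which makes the adjusted threshold stricter. These shares therefore do not measure how many real changes were missed. The number of arrays limits the precision. Names follow RefSeq where the accession matched. 2 probes under another file name whose accession gives a collagen chain were not members.

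The members, gene lists and tests were chosen with earlier results of these data known. Values are given per array for a fixed set of chains and for up to 4 called chains with the largest change in each direction of each comparison. From each list of partner genes up to 3 called genes per direction could be named. Dcn, Lum, Fmod, Matn2, Eln, Acan, Sox2, Cdh5, Vwf, Pecam1, Kdr, Acta2, Tagln, Cnn1, Aldh1a2, Foxc1, the fibroblast and meningeal markers listed with them, and the cartilage genes were named after their values were seen. Normexp correction, quantile scaling, the deposited log2 table, other filters, probe means, other arrays in the fit, the replicate number as a block and each array left out were tried as alternatives.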

Additional observations from a re-analysis of the deposited data

How the results depend on the processing

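Counts of called chains were recomputed with 1 choice changed at a time. In glioma cells against astrocytes (14 called), requiring signal well above background in both groups left 7 called of 24 tested, since chains dark in glioma cells are then not tested, while Col4a6 was tested through its second probe and not called. In glioma cells against neural stem cells (1 called) the count was 0 with normexp correction, the stricter filter or the replicate block, and 2 with the deposited log2 table or with all 9 arrays in the fit. In tissue against glioma cells (2 called) it was 1 with quantile scaling, 0 with normexp correction or the stricter filter, 8 with the deposited log2 table and 4 with the replicate block, which shared 0 with the 2 called (Col12a1 and Col19a1 were lost). In tissue against neural stem cells (4 called) it was 2 with the replicate block, and in tissue against astrocytes (16 called) 9 with the stricter filter. Over all genes, calls in these 2 settings went from 4565 to 2599 and from 5835 to 4228. They went from 4685 to 3378 in glioma cells against astrocytes with the stricter filter. In tissue against glioma cells they went from 4301 to 3743 with the deposited log2 table and to 2600 with the replicate block. Leaving out 1 array gave 8 to 14 calls in glioma cells against astrocytes, 0 to 2 against neural stem cells, 2 to 9 in neural stem cells against astrocytes (7 called), 0 to 5 in tissue against glioma cells, 1 to 6 against neural stem cells and 9 to 16 against astrocytes. Without astrocyte array 2, fewer chains were called in each comparison with astrocytes, and fewer of all genes were too. The same held for glioma cells against astrocytes without glioma cell array 1. Col4a6, through its second probe, ranged from -5.55 to 0.46 and from -0.78 to 3.62 with 1 array left out: it reversed to 0.46 in glioma cells against neural stem cells with the stricter filter or without either astrocyte array, and in tissue against glioma cells to -0.78 with the stricter filter, with the 2 groups alone or without an astrocyte array or neural stem cell array 1, and to -0.62 without tissue array 2. With 1 array left out, uncalled differences between glioma cells and astrocytes ran from -0.65 to 4.57 for Col11a1, -1.20 to 4.85 for Col27a1, -5.49 to 1.43 for Col6a1, -3.36 to 0.75 for Col6a2 (0.31 without astrocyte array 2) and -3.39 to 3.74 for Col6a3 (-3.04 without glioma cell array 1). Col6a3 also turned to -0.06 with quantile scaling and -0.27 with the deposited log2 table, and Itga2 to 0.25 with normexp correction. A group left with 1 array was assumed to vary like the others. Same-numbered arrays of different groups correlated by -0.15 to 0.12 in their deviations from group means. In a group of 2 arrays the deviations mirror each other, and low correlations cannot exclude that same-numbered samples belong together. The replicate block gave 13 and 7 calls in glioma cells and neural stem cells against astrocytes and 11 in tissue against astrocytes. A slide block could not be fitted, because each slide held either tissue or cells. Tissue files lack the mean signal, so normexp used the median signal on every array.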
